A study of Homo sapiens with 6 samples.

Results

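The 5 metallothioneins expressed in A673 cells, MT1E, MT1F, MT1G, MT1X and MT2A, were examined with the zinc sensor MTF1 and the zinc transporters SLC30A1, SLC39A10 and SLC39A14. These 9 genes were taken by symbol from the 25268 symbols of a table of gene expression, and they were chosen by their FPKM differences in these same libraries. Their changes are therefore given as descriptions, and the p-values printed beside them come from a fit across all kept genes and are no independent evidence about the set. A673 is a Ewing sarcoma cell line that carries the EWSR1-FLI1 fusion, in which the FLI1 part supplies an ETS DNA-binding domain. The cells were transfected with esiRNA, a mixture of short interfering RNAs cut from a long double-stranded RNA by an endonuclease, against the deubiquitinase USP9X (esiUSP9X), against FLI1 (esiFLI1), or against GFP as a non-targeting control (esiGFP). RNA was taken 72 h after transfection, with 2 libraries a group, numbered 1 and 2. All 3 groups are the same line in the same medium with serum and antibiotics, and whether libraries of a group came from separate cultures is not stated, so a p-value here reflects the spread of these libraries alone, which may be technical. A sequence against FLI1 can reach the fusion transcript and any transcript of the unrearranged gene, which a gene level value does not separate.

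Values are FPKM as deposited, that is fragments scaled to transcript length and library size, so read depth is unknown and no counting interval can be given. The libraries listed 11310 to 12071 genes at 1 FPKM or more. USP9X stood at 5.31 and 7.10 FPKM in esiUSP9X libraries 1 and 2, against 26.2 and 37.7 in esiFLI1 and 20.6 and 26.5 in esiGFP. FLI1 stood at 12.7 and 14.1 FPKM in esiFLI1, against 25.0 and 31.9 in esiUSP9X and 24.1 and 36.4 in esiGFP. Of 8 Ewing sarcoma markers 7 were kept for testing, while CD99, a surface protein used to diagnose this tumour, was listed at 0 in all 6 libraries. The cause of that 0 was not tested, and it is not read as absence of CD99 from these cells. The summed level of 5 endothelial markers was at most 0.343 FPKM and that of 5 leukocyte markers at most 0.420 FPKM in any library. Of 5 epithelial markers, the keratins KRT8 and KRT18 were kept. CDH1 was listed at 0 in all 6 libraries, and EPCAM and KRT19 reached at most 0.362 and 0.230 FPKM. The list summed to 230.1 and 161.8 FPKM in esiUSP9X, 242.8 and 141.2 in esiFLI1 and 199.3 and 147.9 in esiGFP. KRT18 alone, at 129 to 221 FPKM, gave most of that sum. KRT8 was called higher over esiGFP with the replicate block, by 0.86 in esiUSP9X and 1.36 in esiFLI1 on the log2(FPKM + 1) scale, and the part of keratin-expressing cells in the results was not tested. In bulk RNA, fewer cells of a type and less RNA per cell cannot be told apart.

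Metallothioneins are very small cysteine-rich proteins that hold zinc and copper in clusters of thiolate bonds and so buffer the free metal in the cell. When cytosolic zinc is high, the zinc-finger factor MTF1 binds it, enters the nucleus and acts at metal response elements in front of the metallothionein genes and of SLC30A1. SLC30 transporters move zinc out of the cytosol, and SLC30A1 does so at the plasma membrane, while SLC39 transporters, among them SLC39A10 and SLC39A14, bring zinc into the cytosol.

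The proximal promoters of MT2A and MT1X, the most abundant of the 5 metallothioneins in these libraries, are shown because the metal response elements of this family lie there. Each is the 250 bases upstream of the start in RefSeq (GRCh38.p14), printed on the gene's own strand, with every match to TGCACNC or TGCGCNC, the core of a metal response element, in capitals. Matches on the opposite strand appear as their reverse complement. MT2A is read from chr16:56608334-56608583 and MT1X from chr16:56682220-56682469, both on the plus strand.
MT2A: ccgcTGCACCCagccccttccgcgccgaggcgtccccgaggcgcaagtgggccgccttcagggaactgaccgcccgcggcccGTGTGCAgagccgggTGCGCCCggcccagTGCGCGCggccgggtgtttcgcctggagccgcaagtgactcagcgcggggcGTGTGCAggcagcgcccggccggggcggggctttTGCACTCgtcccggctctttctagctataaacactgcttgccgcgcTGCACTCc
MT1X: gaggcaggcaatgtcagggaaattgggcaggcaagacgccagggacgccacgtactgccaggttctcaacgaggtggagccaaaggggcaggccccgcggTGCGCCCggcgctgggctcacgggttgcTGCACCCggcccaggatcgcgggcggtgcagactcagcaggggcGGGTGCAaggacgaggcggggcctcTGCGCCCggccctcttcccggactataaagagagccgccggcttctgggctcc

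The MT2A window held 7 matches and the MT1X window 4, none of them overlapping another. Of 35114 RefSeq promoter windows of that length, 24.8% held at least 1 match, 0.37% at least 4 and 0.0313% at least 7. The window of MT1H, listed at no more than 0.0721 FPKM in any library, held 8. Those of MT1B and MT4, listed at 0 in each library, held 3 each, so the number of matches did not follow the level within the family. SLC30A1 held 1 match, on the minus strand, and MTF1 and SLC39A10 held 0. Promoters of 5 of the 9 genes were matched by symbol, and MT1E, MT1F, MT1G and SLC39A14 were not among them. A match describes letters in the window and says nothing about binding in these cells.

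All 9 genes stood above 1 FPKM in each of the 6 libraries, so none entered the test through a single group. MT2A was the highest and MT1X the next highest metallothionein in each library, and MT1G was the lowest. MT2A gave 68.0 to 76.0% of the summed FPKM of the 5 genes, MT1X 10.5 to 17.1%, MT1F 3.92 to 7.39%, MT1E 4.10 to 6.78% and MT1G 1.22 to 3.34%. MT1E exceeded MT1F in both esiUSP9X libraries, and MT1F exceeded MT1E in both esiGFP libraries. Of the 11 other metallothionein symbols in the table, 5 were listed at 0 in each library and the highest value was 0.607 FPKM, for the brain-enriched MT3. These genes are near-identical in sequence and short, and the sources used here do not say how reads matching several of them were shared, so a value for a single metallothionein is less certain than their sum.

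The metallothioneins were lower in esiUSP9X than in esiGFP within each replicate number. Their summed level was 206.5 and 62.31 FPKM in esiUSP9X libraries 1 and 2, against 445.9 and 120.5 FPKM in esiGFP. That is 0.463 of the esiGFP sum in replicate 1 and 0.517 in replicate 2. The replicates of each group differed by more than the groups did: the sum in replicate 1 was 3.31 times that in replicate 2 in esiUSP9X, 3.90 times in esiFLI1 and 3.70 times in esiGFP.

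**Figure D1:**
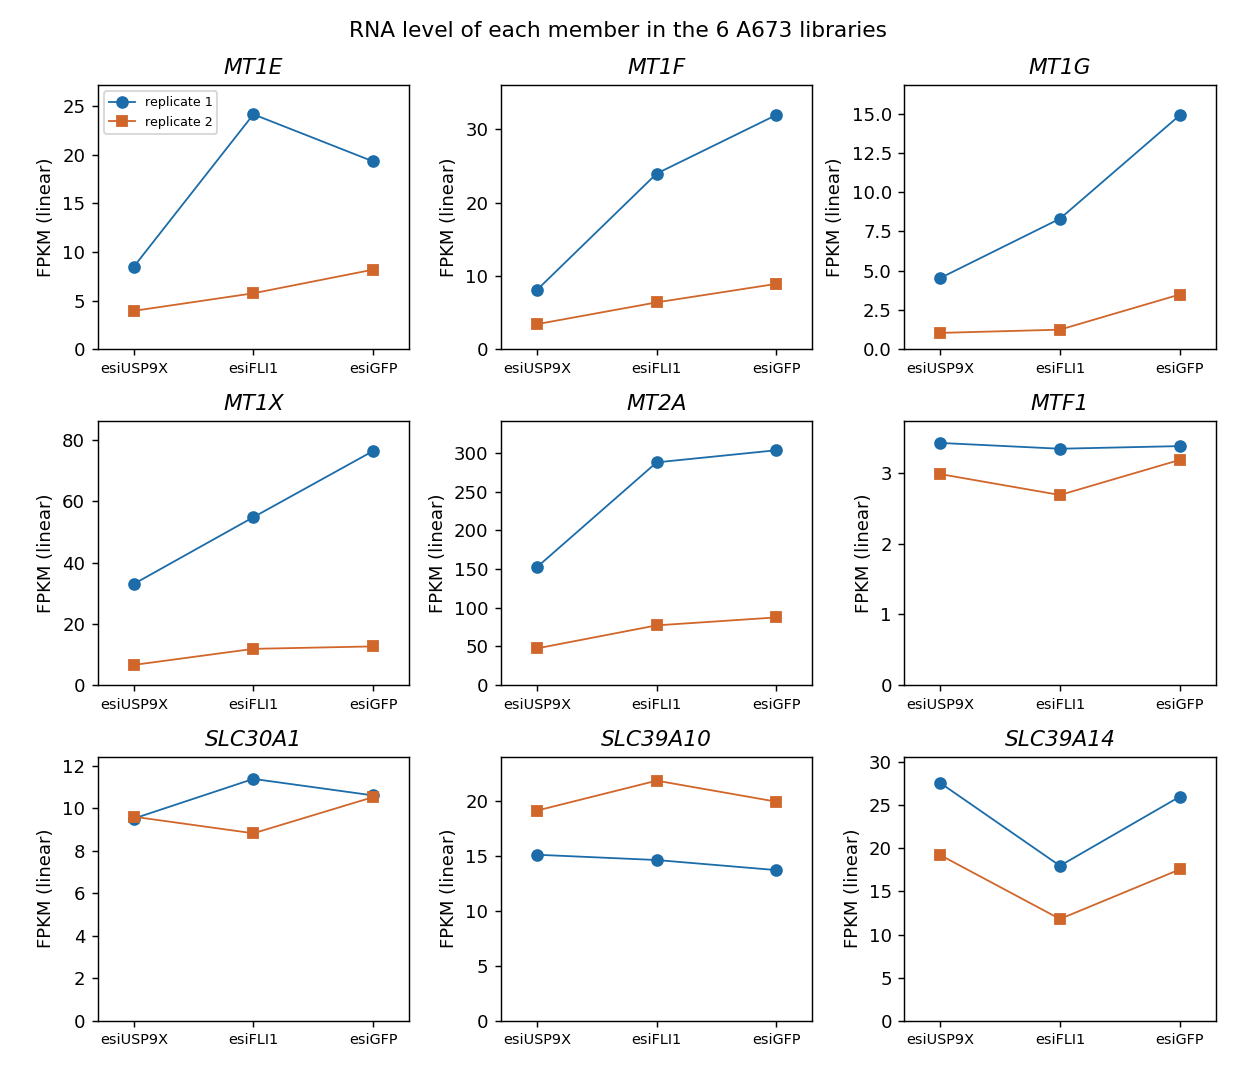
FPKM (linear axis) of the 9 genes in each library, with groups in the order esiUSP9X, esiFLI1 and esiGFP. A line joins the libraries that share a replicate number. For MT2A the replicate 1 line runs through 152, 288 and 303 FPKM and the replicate 2 line through 47.4, 77.1 and 87.4 FPKM, while both MTF1 lines stay between 2.69 and 3.43 FPKM.

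MT2A, the main metallothionein of most human tissues, had 152 and 47.4 FPKM in esiUSP9X libraries 1 and 2, against 303 and 87.4 FPKM in esiGFP. The groups overlapped, since esiUSP9X library 1 lay above esiGFP library 2, but within a replicate number esiUSP9X was lower, at 0.502 and 0.542 of esiGFP. The fitted change was -0.93 on the log2(FPKM + 1) scale, with a standard error of 0.97 in limma's fit of 3 group means and 0.10 in a second fit with the replicate number as a block. MT1X, a second broadly expressed member, had 33.0 and 6.57 FPKM in esiUSP9X, against 76.4 and 12.6 FPKM in esiGFP. Here too the groups overlapped and both same-numbered pairs were lower in esiUSP9X, at 0.432 and 0.521 of esiGFP. The fitted change was -1.02 (SE 1.23 without the block and 0.12 with it).

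MT1F had 8.09 and 3.42 FPKM in esiUSP9X, against 32.0 and 8.91 FPKM in esiGFP. Both esiUSP9X values lay below both esiGFP values. That was also so for SLC30A1, whose change was -0.13, so such separation alone does not mark a large change. The fitted change of MT1F was -1.51 (SE 0.85 without the block and 0.18 with it). MT1E had 8.47 and 3.94 FPKM in esiUSP9X, against 19.3 and 8.17 FPKM in esiGFP. The upper esiUSP9X value of MT1E lay just above the lower esiGFP value, and both same-numbered pairs were lower in esiUSP9X. MT1G, often silenced by methylation in carcinomas, had 4.53 and 1.04 FPKM in esiUSP9X, against 14.9 and 3.48 FPKM in esiGFP. Its groups overlapped by a single library, and esiUSP9X stood at 0.305 and 0.298 of esiGFP in the same-numbered pairs. The fitted changes of MT1E and MT1G were -0.997 and -1.33, understated for values this low by the added 1 FPKM.

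In limma's fit without a block 0 of the 9 genes were called at an adjusted p under 0.05 in esiUSP9X against esiGFP, beside 0.0247% of the 12169 kept genes (3 genes, all higher), and 0 of the 9 had an unadjusted p under 0.05. With the replicate number as a block 4 of the 9 were called, all lower, beside 0.238% of kept genes in either direction, 0.164% called lower and 0.074% higher. The 4 were MT2A (blocked adjusted p = 0.021), MT1F (0.021), MT1G (0.021) and MT1X (0.022), among the 20 genes called lower. MT1E missed the threshold at 0.17, with a blocked 95% interval of -1.47 to -0.52. The median change of the 5 metallothioneins was -1.02, beside -0.0139 over all kept genes, and at most 0.378% of kept genes had a lower change than any of the 5.

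The number of metallothioneins called with the block depended on single libraries, while the direction did not. It was 0 without esiFLI1 1, without esiFLI1 2 or without esiUSP9X 1, where MT2A had adjusted p of 0.11, 0.11 and 0.25. It was 2 without esiUSP9X 2, namely MT1F and MT1G, and 5 without esiGFP 1 or without esiGFP 2. Across these 6 blocked fits the median change of the 5 genes ran from -1.29 to -0.944. Without a block, the change of MT1X turned to 0.24 without esiGFP 1 and to 0.07 without esiUSP9X 2, fits in which that group is represented by a single library.

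**Figure D2:**
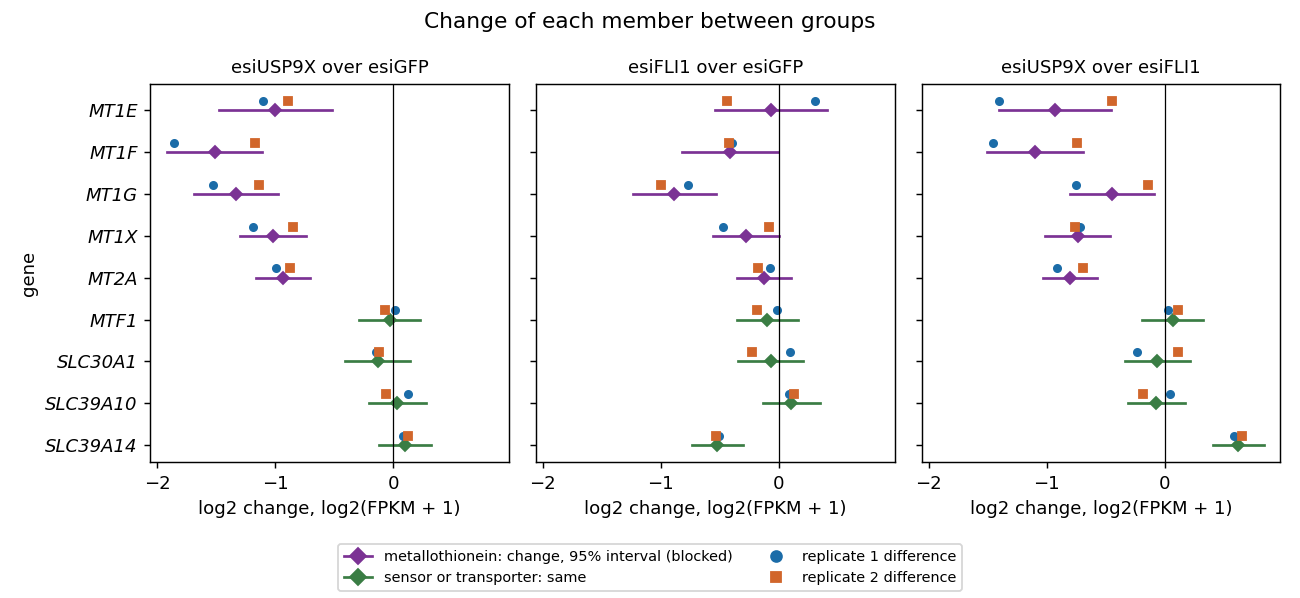
Change of each of the 9 genes on the log2(FPKM + 1) scale in esiUSP9X over esiGFP, esiFLI1 over esiGFP and esiUSP9X over esiFLI1, with points for the fitted change, bars for the 95% interval of the fit with the replicate block and small marks for the differences within replicate 1 and replicate 2. In esiUSP9X over esiGFP the 5 metallothionein intervals lie below 0, the nearest bound being -0.52 for MT1E, and the intervals of MTF1, SLC30A1, SLC39A10 and SLC39A14 include 0.

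In esiFLI1 against esiGFP 1 of the 5 metallothioneins, MT1G, was called, and only with the replicate block. This comparison uses the same esiGFP libraries as the previous comparison, so the changes are not independent. The summed level was 398.9 and 102.3 FPKM in esiFLI1, against 445.9 and 120.5 FPKM in esiGFP, or 0.895 and 0.849 of the control. MT2A had 288 and 77.1 FPKM in esiFLI1, against 303 and 87.4 FPKM in esiGFP. Those values lay side by side in each replicate number, and the fitted change was -0.13 with a blocked 95% interval of -0.36 to 0.10. MT1X had 54.8 and 11.8 FPKM in esiFLI1, against 76.4 and 12.6 FPKM in esiGFP, and MT1F had 24.0 and 6.39 FPKM, against 32.0 and 8.91 FPKM. Both were somewhat lower in each same-numbered pair, with changes of -0.28 and -0.41 and blocked adjusted p of 0.097 and 0.094. MT1E had 24.1 and 5.75 FPKM in esiFLI1, against 19.3 and 8.17 FPKM in esiGFP. It was higher in esiFLI1 in replicate 1 and lower in replicate 2, with a fitted change of -0.07.

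MT1G had 8.31 and 1.24 FPKM in esiFLI1, against 14.9 and 3.48 FPKM in esiGFP. It was lower in esiFLI1 in both same-numbered pairs, with a change of -0.88 (blocked SE 0.15, blocked adjusted p = 0.0032). That call ended without esiFLI1 2 (0.053). In limma's fit without a block 0 of the 9 genes were called in esiFLI1 against esiGFP, beside 2.81% of kept genes (2.58% higher and 0.23% lower), and 0 had an unadjusted p under 0.05. With the block 2 were called, MT1G and SLC39A14, both lower, beside 42.1% of kept genes in either direction and 21.6% lower. As both calls were lower, the matching background is the 21.6%, and 2 of 9 is near it. The median change of the 5 metallothioneins was -0.28, beside -0.0339 over all kept genes. With a correction for transcript GC content and length that median was -0.02, and MT1E and MT2A changed sign, to 0.16 and 0.14.

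The difference between the knockdowns was tested directly as esiUSP9X over esiFLI1. The summed metallothionein level in esiUSP9X was 0.518 of that in esiFLI1 in replicate 1 and 0.609 in replicate 2. The fitted changes were -0.80 for MT2A (blocked adjusted p = 6.9e-04), -1.10 for MT1F (0.0022), -0.74 for MT1X (0.0024), -0.93 for MT1E (0.0092) and -0.45 for MT1G (0.049). With the block 6 of the 9 genes were called, these 5 lower and SLC39A14 higher, beside 41.1% of kept genes, 20.9% lower and 20.2% higher. Without a block limma called 0 of the 9, beside 3.08% of kept genes (0.419% higher and 2.66% lower), and 0 had an unadjusted p under 0.05. Across the 6 blocked fits that left out a library the changes kept their sign for the 5 metallothioneins and SLC39A14. They ran from -1.45 to -0.748 for MT1F, -0.845 to -0.63 for MT1X and -0.887 to -0.717 for MT2A. For MT1E they ran from -1.36 to -0.502, for MT1G from -0.694 to -0.196 and for SLC39A14 from 0.597 to 0.652. MT1E was not called without esiUSP9X 1 (0.11), and MT1G was not called without esiFLI1 1 (0.34), esiFLI1 2 (0.056) or esiUSP9X 1 (0.40). The median change of the 5 was -0.80, beside 0.0158 over all kept genes.

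The gap between replicates 1 and 2 in the summed metallothionein level, over 3-fold in each group, was wider than any gap between groups within a replicate number. MT1X in replicate 1 was 5.03 times its replicate 2 level in esiUSP9X, 4.64 times in esiFLI1 and 6.06 times in esiGFP. MT2A in replicate 1 was 3.22, 3.73 and 3.47 times its replicate 2 level in the same groups. Averaged over the 3 groups, replicate 2 minus replicate 1 was -2.27 for MT1X, -1.78 for MT2A, -1.77 for MT1G, -1.51 for MT1F and -1.33 for MT1E on the log2(FPKM + 1) scale, beside a median of -0.0885 over all kept genes. At most 0.855% of kept genes had a lower value than any of these 5. MTF1 and SLC30A1 differed little between replicates, at -0.15 and -0.11, while SLC39A14 stood at -0.54 and SLC39A10 at 0.46.

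The replicate difference moved with transcript GC content across genes, with a Spearman correlation of -0.866 over 11470 kept genes, which are not independent replicates and share the same 6 libraries. It moved less with transcript length, with a correlation of 0.282. The longest coding transcripts of the metallothioneins are 53.5 to 63% GC and 538 to 786 bases long, whereas those of MTF1, SLC30A1, SLC39A10 and SLC39A14 are 37.6 to 47.7% GC and 4641 to 7972 bases long. The 3254 kept genes of 53 to 63% GC had a median replicate difference of -0.565, and the 82 kept genes under 600 bases with at least 50% GC had one of -0.497. A single transcript, MIR6723, took 33.2 to 35.8% of the summed FPKM in replicate 1 libraries and 41.8 to 50.9% in replicate 2 libraries. The part of GC content, length and this transcript in the metallothionein gap between replicates was not tested.

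Transcript properties were also set against the change with knockdown. Across genes the Spearman correlation of the change in esiUSP9X over esiGFP was -0.167 with GC content and 0.174 with length, and in esiFLI1 over esiGFP it was -0.156 and 0.225. In esiUSP9X over esiGFP, genes of 53 to 63% GC had a median change of -0.0313. In a blocked fit corrected for GC content and length, the changes in esiUSP9X over esiGFP were -1.44 for MT1F, -1.27 for MT1G, -0.96 for MT1X, -0.95 for MT1E and -0.85 for MT2A. MT1F (adjusted p = 0.048) and MT1X (0.029) were then called, while MT1G and MT2A stood at 0.063 each and MT1E at 0.15.

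**Figure D3:**
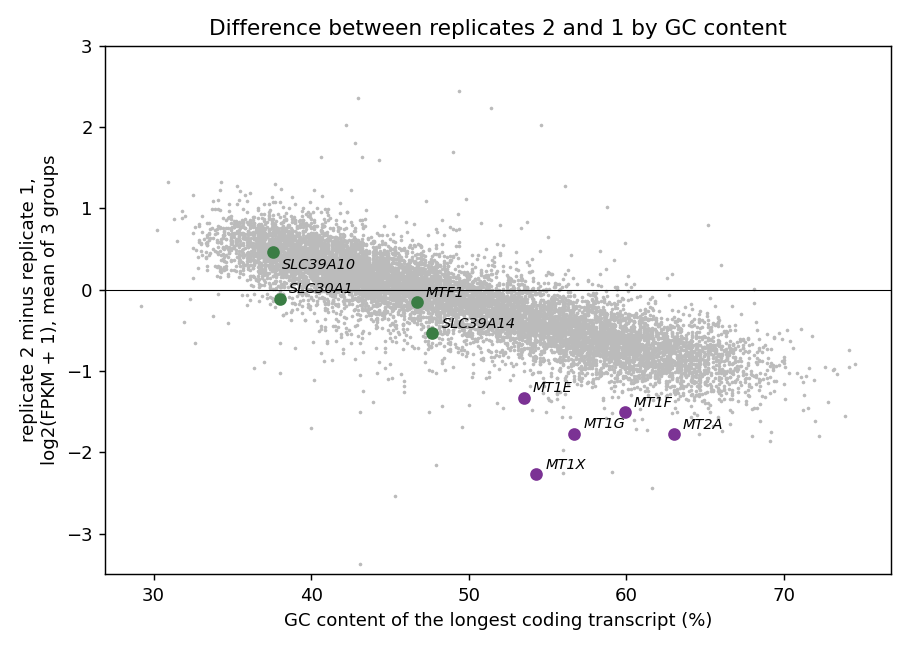
Difference of replicate 2 minus replicate 1 on the log2(FPKM + 1) scale, averaged over the 3 groups, against transcript GC content in percent for 11470 kept genes (grey, 8 genes outside the axis), with the 9 named genes marked. The metallothioneins, at -2.27 to -1.33, lie below the downward slope of the other genes at the same GC, where the median is -0.565, and MTF1, SLC30A1, SLC39A10 and SLC39A14 lie between -0.54 and 0.46.

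The zinc sensor did not follow the metallothioneins in level. MTF1 had 3.43 and 2.99 FPKM in esiUSP9X, 3.34 and 2.69 FPKM in esiFLI1 and 3.38 and 3.19 FPKM in esiGFP. The groups overlapped throughout. Its change was -0.03 in esiUSP9X over esiGFP (blocked 95% interval -0.29 to 0.23) and -0.10 in esiFLI1 over esiGFP, called in neither. The activity of MTF1 depends on zinc binding and location, which RNA levels do not report.

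SLC30A1, the exporter that shares MTF1 control with the metallothioneins, had 9.51 and 9.60 FPKM in esiUSP9X, 11.4 and 8.82 FPKM in esiFLI1 and 10.6 and 10.5 FPKM in esiGFP. Both esiUSP9X values lay below both esiGFP values, but the change was -0.13 with a blocked 95% interval of -0.41 to 0.15. The interval does not reach the change of -0.93 fitted for MT2A, whose standard error was 0.97 without the block. The difference between these genes was not tested. In esiFLI1 over esiGFP the change of SLC30A1 was -0.07.

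SLC39A10, a plasma membrane importer, had 15.1 and 19.1 FPKM in esiUSP9X, 14.6 and 21.9 FPKM in esiFLI1 and 13.7 and 19.9 FPKM in esiGFP. Replicate 2 was the higher in each group and the groups overlapped. Its change was 0.04 in esiUSP9X over esiGFP (blocked 95% interval -0.20 to 0.28) and 0.11 in esiFLI1 over esiGFP, called in neither.

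SLC39A14, an importer of zinc that also carries manganese and iron, was the member called with the block in esiFLI1 over esiGFP besides MT1G. It had 27.6 and 19.2 FPKM in esiUSP9X, 18.0 and 11.8 FPKM in esiFLI1 and 26.0 and 17.5 FPKM in esiGFP. In esiFLI1 it stood at 0.692 and 0.673 of esiGFP in the same-numbered pairs, but the groups overlapped, since esiFLI1 library 1 lay just above esiGFP library 2. Both esiFLI1 values lay below both esiUSP9X values. The change in esiFLI1 over esiGFP was -0.52 (blocked SE 0.09, blocked adjusted p = 0.0039), in a blocked fit that called 21.6% of all kept genes lower. Without a block the adjusted p was 0.57. Across the 6 blocked fits that left out a library this change ran from -0.544 to -0.497. In esiUSP9X over esiGFP the change of SLC39A14 was 0.10 (blocked 95% interval -0.12 to 0.32), and in esiUSP9X over esiFLI1 it was 0.62 (blocked adjusted p = 0.0017). The median change of MTF1, SLC30A1, SLC39A10 and SLC39A14 was 0.00 in esiUSP9X over esiGFP and -0.08 in esiFLI1 over esiGFP.

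The remaining zinc transporters give the context for these 3. Of 24 SLC30 and SLC39 symbols listed, 17 were kept, 6 exporters and 11 importers, and the other 7 reached at most 1.19 FPKM. In esiUSP9X over esiGFP limma called 0 of the 17 with or without the block, and 0 had an unadjusted p under 0.05 in either fit. That comparison called 0.0247% of all kept genes without the block and 0.238% with it. A count of 0 of 17 is near those shares and is no result about zinc transporters. Unadjusted p was under 0.05 for 114 of the 12169 kept genes without the block and 1321 with it. In esiFLI1 over esiGFP without a block 0 were called, beside 2.81% of all kept genes. Unadjusted p was under 0.05 for 0 of the 17 there, beside 1923 of the 12169 kept genes. With the block 1 exporter was lower, 3 importers were higher and 3 importers were lower. Those 7 of 17 stand beside 42.1% of all kept genes called in that blocked fit (20.6% higher and 21.6% lower), so the count is near the background and is no result about zinc transporters.

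The exporter called lower was SLC30A3, which loads zinc into synaptic vesicles. It had 2.43 and 0.701 FPKM in esiFLI1, against 5.23 and 1.97 FPKM in esiGFP, and a change of -0.83 (blocked adjusted p = 0.0015). The importers called lower were SLC39A14, SLC39A8 at -0.62 (0.0031) and SLC39A4 at -0.64 (0.013), the intestinal importer mutated in acrodermatitis enteropathica. SLC39A8, which like SLC39A14 carries manganese besides zinc, had 6.11 and 9.04 FPKM in esiFLI1, against 11.0 and 13.2 FPKM in esiGFP. Its esiFLI1 values lay below both esiGFP values.

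The importers called higher were SLC39A13 at 0.52 (blocked adjusted p = 0.0082), SLC39A7 at 0.34 (0.032) and SLC39A6 at 0.30 (0.042). SLC39A13 and SLC39A7 release zinc from the Golgi and the endoplasmic reticulum. SLC39A7 had 106 and 69.7 FPKM in esiFLI1, against 77.5 and 59.5 FPKM in esiGFP. These groups overlapped, and both same-numbered pairs were higher in esiFLI1. In esiUSP9X over esiFLI1 the blocked fit called SLC30A3 (0.74), SLC39A3 (0.56), SLC39A4 (0.77), SLC39A8 (0.72) and SLC39A14 higher. It called SLC30A6 (-0.38), SLC30A9 (-0.34), SLC39A6 (-0.43) and SLC39A13 (-0.76) lower. These 5 higher and 4 lower of 17 stand beside 20.2% and 20.9% of all kept genes in that blocked fit, where such calls are common. Without a block limma called 0 of the 17 in that comparison, beside 3.08% of all kept genes. Unadjusted p was under 0.05 for 1 of the 17, beside 1931 of the 12169 kept genes.

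**Figure D4:**
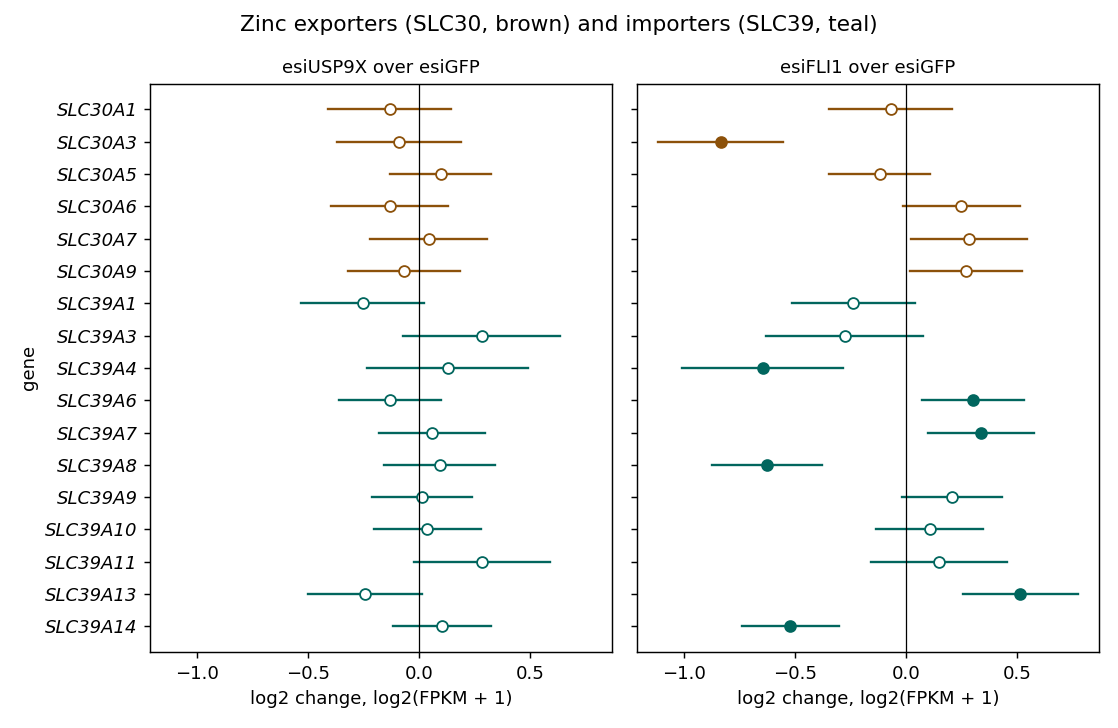
Change on the log2(FPKM + 1) scale of the 17 kept SLC30 and SLC39 transporters in esiUSP9X over esiGFP and esiFLI1 over esiGFP, with bars for the 95% interval of the fit with the replicate block and filled points for a blocked adjusted p under 0.05. No point is filled in esiUSP9X over esiGFP, and 7 are filled in esiFLI1 over esiGFP, from -0.83 for SLC30A3 to 0.52 for SLC39A13. Of all kept genes 0.238% and 42.1% were called in these blocked comparisons.

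Genes of other metals, of metal-inducible stress and of the glucocorticoid response were also listed. In esiUSP9X over esiGFP limma called 0 of them without a block and 1, NQO1, with it. That comparison called 0.0247% of all kept genes without a block and 0.238% with it. A count of 0 in a short list is therefore no result about that list. Unadjusted p was under 0.05 for 114 of the 12169 kept genes without a block and 1321 with it. Of 22 kept copper and iron genes limma called 0 in esiUSP9X over esiGFP with or without the block, 0 had an unadjusted p under 0.05 in either fit, and the median change was 0.01. In esiFLI1 over esiGFP the blocked fit called 2 of the 22 higher and 4 lower, a smaller share than the 42.1% of all kept genes, among them the iron exporter SLC40A1 at 0.74 (blocked adjusted p = 0.0059) and the transferrin receptor TFRC at -0.81 (5.9e-04). Of 14 metal-inducible stress genes the blocked fit called 1 lower in esiUSP9X over esiGFP, beside 0.164% of all kept genes, and 8 lower in esiFLI1 over esiGFP, beside 21.6%. Without a block limma called 0 in both, beside 0.0247% and 2.81% of all kept genes. Unadjusted p was under 0.05 for 1 and 2 of the 14, beside 114 and 1923 of the 12169 kept genes. The list had a median of -0.38 in esiFLI1 over esiGFP. The chaperones HSPA8 and HSPA1A changed by -0.72 and -0.47 in esiFLI1, and HSPA1A has a near-identical copy. Glucocorticoids also induce metallothioneins, and their part in the metallothionein changes was not tested. Of 10 glucocorticoid-responsive genes 0 were called in esiUSP9X over esiGFP in either fit, near the shares of all kept genes given above. In both fits 0 had an unadjusted p under 0.05. In esiFLI1 over esiGFP KLF9 (1.01, adjusted p = 0.033) and ERRFI1 (1.26, 0.034) were called higher in limma's fit without a block. That is 2 of the 10, beside 2.58% of all kept genes called higher. With the block 5 of the 10 were higher and 1 lower, beside 20.6% and 21.6%. KLF9, counted in both fits, had 2.22 and 2.40 FPKM in esiFLI1 and at most 0.756 FPKM in any other library. It passed the filter only through esiFLI1, so its call is no support for the list.

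The stress gene called lower in esiUSP9X was NQO1, a quinone reductase, which was named after its values were seen. It had 15.7 and 15.5 FPKM in esiUSP9X, 41.3 and 37.3 FPKM in esiFLI1 and 33.7 and 33.1 FPKM in esiGFP. Both esiUSP9X values lay below every value of the other groups, and unlike the metallothioneins NQO1 differed little between replicates. Its change in esiUSP9X over esiGFP was -1.05 (blocked adjusted p = 0.0095), a call that is lost without the block (adjusted p = 1).

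Over the 6 libraries the 5 metallothioneins kept close to their mean profile, with Pearson r of 0.974 to 0.992. Each of the 5 is part of that mean, so a high r is partly built in. The replicate gap weighs more than the knockdowns in this profile, which is a description. Outside the family, of 8149 genes with a mean of at least 5 FPKM, the profiles most like it were those of PRKAR1B (0.992), a regulatory subunit of protein kinase A, CCNL2 (0.991), a cyclin linked to splicing, ACTG1 (0.990), cytoplasmic actin, CAP1 (0.990), an actin-binding protein, and RAB24 (0.989), a small GTPase. Each of these was higher in replicate 1 than in replicate 2 within every group. PRKAR1B had 8.84 and 6.54 FPKM in esiUSP9X, 11.99 and 6.85 FPKM in esiFLI1 and 13.1 and 7.84 FPKM in esiGFP. For MTF1 r was 0.733, for SLC30A1 0.720, for SLC39A14 0.484 and for SLC39A10 -0.867. These genes are not part of the mean profile, so their r is not on equal terms with that of the metallothioneins.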

How the data were processed

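Total RNA of 6 A673 libraries (3 groups of 2) was made into stranded, ribosomal RNA-depleted libraries and sequenced as single reads, per the labels' protocols. The authors deposited FPKM per gene symbol, with the builds hg19 and GRCh37 and the tools TopHat, Cufflinks and Cuffdiff (no versions), per the submitters' processing notes. Read depth and the treatment of strand and of reads matching several genes are not stated. The 9 genes and the comparison lists were chosen with earlier results of these data known.

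The table held 25268 symbols after 1 stray line was dropped. Genes at 1 FPKM or more in at least 2 libraries were kept (12169, of which 107 were listed at 0 in some library). Values were tested as log2(FPKM + 1) with limma 3.58.1 in R 4.3.3 (eBayes with a trend, 2-sided), with 3 group means in one fit and Benjamini-Hochberg adjustment over all kept genes. An adjusted p under 0.05 counted as a call. That fit had 3 residual and 2.21 prior degrees of freedom. Another fit took the replicate number as a block (2 residual and 5.72 prior). The labels do not say that a number marks a shared batch. Deviations of same-numbered libraries from their group means correlated at 0.589 to 0.647 over 12169 genes in each pair of groups, so the pairing was taken from the data. Length and GC content of the longest coding transcript were taken from GENCODE v29 for 11470 kept genes (94.3%), and promoters from RefSeq (GRCh38.p14), so no coordinates were joined to the files. Transporters were named where called in either fit. From each other list the 2 genes of smallest adjusted p in esiFLI1 over esiGFP were named, and the profile search took the 5 highest correlations. The fits were tested on simulated data. The simulation gave same-numbered libraries a shared replicate effect, so it cannot show that the block holds for these libraries. Alternatives were a pseudocount of 0.1, no filter or one at 5 FPKM, quantile and median-of-ratios scaling, the block, and leaving out each library. The blocked fits with a GC and length correction, quantile scaling or a pseudocount of 0.1 were chosen after seeing the data.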

Additional observations from a re-analysis of the deposited data

How the results depend on the processing

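With 2 libraries a group and a large replicate effect, the choice of the replicate block decided which genes were called. Beside the 342, 3 and 375 genes called in esiFLI1 over esiGFP, esiUSP9X over esiGFP and esiUSP9X over esiFLI1, the replicate block called 5125, 29 and 4996. The block with the GC and length correction called 5919, 23 and 5958, with quantile scaling 4710, 34 and 4863, and with a pseudocount of 0.1 it called 5104, 26 and 4969. Of the 9 genes, 0 were called without a block in each comparison. In the same order of comparisons the block called 2, 4 and 6, with the GC and length correction 2, 2 and 6, with quantile scaling 2, 4 and 5, and with the lower pseudocount 2, 4 and 6. Without a block, no filter gave 558 genes in esiFLI1 over esiGFP, and a filter at 5 FPKM gave 139 there and 154 in esiUSP9X over esiFLI1.

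The median change of the 5 metallothioneins in esiFLI1 over esiGFP was -0.223 with quantile scaling, with or without the block, -0.296 with median-of-ratios scaling and -0.0182 with the block and GC and length correction. In esiUSP9X over esiFLI1 it was -0.989 with that correction. The median of MTF1 and the 3 transporters in esiUSP9X over esiFLI1 was -0.0627 with the filter at 5 FPKM, which leaves MTF1 out, 0.0959 with quantile scaling, with or without the block, and 0.0911 with the GC and length correction. That correction turned the sign of MT1E (0.157) and MT2A (0.141) in esiFLI1 over esiGFP and of SLC30A1 (0.0217) and SLC39A10 (0.0161) in esiUSP9X over esiFLI1. The cause of these shifts was not tested.

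Leaving out each library in turn, with and without the block together, gave 2 to 4670 genes in esiFLI1 over esiGFP, 3 to 271 in esiUSP9X over esiGFP and 3 to 5378 in esiUSP9X over esiFLI1. The 9 genes had 0 to 4, 0 to 5 and 0 to 6 calls in that order. The metallothionein medians ran from -1.29 to 0.782, from -2.24 to -0.416 and from -1.80 to 0.141. The medians of MTF1 and the transporters ran from -0.115 to 0.055 in esiUSP9X over esiGFP and from 0.00116 to 0.146 in esiUSP9X over esiFLI1. Signs turned in fits of both kinds. With the block they turned for MT1E and SLC30A1 in esiFLI1 over esiGFP, for MTF1 and SLC39A10 in esiUSP9X over esiGFP, and for SLC30A1 and SLC39A10 in esiUSP9X over esiFLI1, and for no other of the 9 genes.
In esiFLI1 over esiGFP the changes ran from -1.02 to 0.881 for MT1E, -1.29 to 0.466 for MT1F, -1.91 to 0.142 for MT1G, -1.53 to 0.975 for MT1X, -1.07 to 0.816 for MT2A, -0.215 to 0.0207 for MTF1, -0.236 to 0.099 for SLC30A1 and -0.167 to 0.381 for SLC39A10. In esiUSP9X over esiGFP they ran from -2.27 to 0.237 for MT1X, -0.104 to 0.0476 for MTF1, -0.217 to 0.292 for SLC39A10 and -0.167 to 0.374 for SLC39A14. In esiUSP9X over esiFLI1 they ran from -1.88 to 0.0195 for MT1E, -1.47 to 0.581 for MT1G, -1.82 to 0.346 for MT1X, -1.75 to 0.141 for MT2A, -0.0488 to 0.187 for MTF1, -0.23 to 0.105 for SLC30A1 and -0.344 to 0.204 for SLC39A10. A group left with 1 library is assumed to vary like the others.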
